A study of Mus musculus with 16 samples.

Results

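The comparison described here is the share of 4-thiouridine label that transcripts still carried at 3 and 6 h of a chase in YBX1-/- leukemia cells against WT leukemia cells. For each gene, the T-to-C rate at 3 h or 6 h was divided by the mean rate at 0.5 and 1 h of the same genotype, and the 0 h libraries were left out. This took 8 of the 16 libraries, 4 of the early window (0.5 and 1 h) and 4 of the late window (3 and 6 h), with 1 library for each genotype and time point. Of 21177 genes in the deposited table, 6027 reached a mean CPM (reads scaled to library size) of 5, and 5967 of these also had a rate above 0 in all 4 early libraries and were tested. The genes just inside the CPM limit were Ttyh3, Gramd1a and Mdc1 (5.0003, 5.0004 and 5.0037) and those just outside were Kbtbd4, Galnt2 and Gm20388 (4.9982 each).

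Both groups were leukemia cells of C57BL/6 mice with bone marrow as the labelled tissue, and they differed by genotype, WT or YBX1-/-. The labels give no age, no leukemia driver and no number of animals or clones, so whether the time points of a genotype were separate cultures is unknown. Cells of both genotypes were exposed to 50 µM 4-thiouridine for 24 h, washed, and moved to medium with 10 mM uridine. Per its title, the series is about YBX1 and mRNA stability in these leukemia cells.

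YBX1 is a cold-shock domain protein that binds mRNA, packages it into ribonucleoprotein particles and has been linked to transcript stability, in part through readers of methylated RNA. In SLAM-seq, incorporated 4-thiouridine is alkylated and read as C in place of T, so converted reads mark RNA made during labelling. During the chase the converted share of a transcript declines as old copies decay and as unlabelled copies are made. These 2 processes cannot be told apart from the rate, and the rate says nothing of how abundant a transcript is.

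The median T-to-C rate over tested genes in the WT libraries was 49.4, 43.6, 20.2 and 10.2% in order of time, and in the YBX1-/- libraries it was 36.7, 29.7, 18.2 and 4.61%. The early libraries were close to each other across genes (r = 0.77 between 0.5 and 1 h in WT, 0.84 in YBX1-/-), and the late ones less so (r = 0.47 and 0.52, over 5967 genes that share libraries and depth). The YBX1-/- 6 h library stood apart, with the widest spread of log2 rates (SD 1.55, against 0.61 to 1.30 in the other 7) and 177 genes at exactly 0, against 26 to 70 in the other late libraries. The WT 3 h library came next, with an SD of 1.30 and 70 genes at 0. In WT at 6 h these values were 1.07 and 50. Of 18 myeloid marker genes, 17 reached a mean CPM of 5, and the defining myeloid genes included Lyz2 at 7376 CPM. Markers of other cell types at this limit were 1 of 10 for B cells, 2 of 12 for T and NK cells (Il7r and Nkg7), 1 of 12 for erythroid cells (Tfrc), 2 of 9 for megakaryocytes (Pf4 and Ppbp) and 0 of 11 for stroma. These CPM values are the authors' means over the libraries, so cell composition could not be compared between the genotypes and its part in the results was not tested.

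Relative to its early label, the typical transcript kept more label in YBX1-/- at 3 h and less at 6 h. The median rate itself was lower in YBX1-/- at each time, and at 3 h it was 18.2% against 20.2% in WT. The larger share at 3 h is thus measured against lower early rates, 36.7 and 29.7% against 49.4 and 43.6% in WT. At 3 h the median gene retained 44.7% of its early label in WT (quartiles 30.3 and 60.9%) and 55.7% in YBX1-/- (38.6 and 75.2%). At 6 h it retained 22.2% in WT (16.2 and 32.1%) and 14.4% in YBX1-/- (7.93 and 28.4%). Retained label was higher in YBX1-/- for 4155 genes at 3 h (69.6%) and for 1602 genes at 6 h (26.9%). Both time points are measured against the same early libraries, and with 2 time points a side the smallest 2-sided exact permutation p is 0.5, so no test was run on these medians.

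At 6 h the genes of YBX1-/- were also more unequal. The upper quartile was 3.58 times the lower in YBX1-/- and 1.99 times in WT, whereas at 3 h the ratios were 1.95 and 2.01. Genes with less than 10% of their early label left numbered 2025 (33.9%) in YBX1-/- at 6 h and 408 (6.84%) in WT. At 3 h the order was the other way round, with 58 such genes in YBX1-/- and 274 in WT. The upper end differed less at 6 h, where 41 genes in YBX1-/- and 24 in WT stood above 100% of their early rate.

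**Figure D1:**
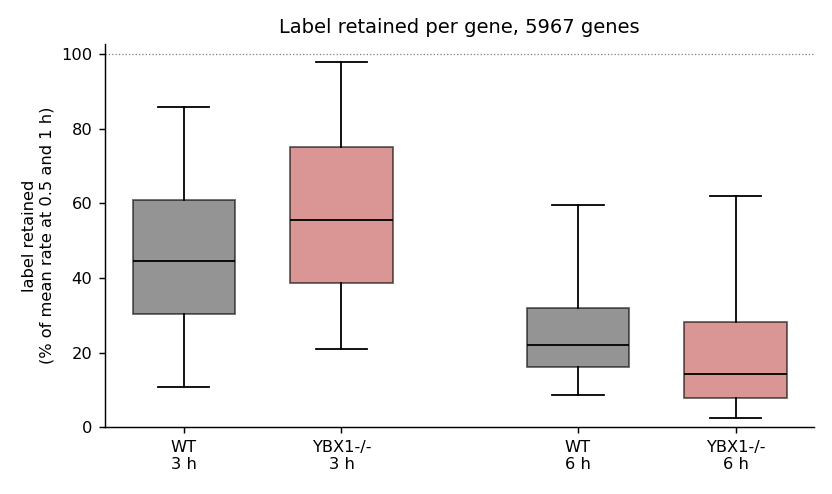
Label retained per gene (percent of the mean rate at 0.5 and 1 h, linear axis) in each late library, over 5967 genes. Boxes are quartiles with the median, whiskers reach the 5th and 95th percentiles of genes, and the dotted line marks 100%. The YBX1-/- median is above WT at 3 h (55.7 against 44.7%) and below it at 6 h (14.4 against 22.2%).

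Single genes were then compared after each library had been centred on its median gene, so that a difference is relative to the typical transcript of the same library. The estimate, called the retained label difference below, is the genotype difference in log2 rate in the late window minus that in the early window, from a limma fit with the time point as a factor. No gene passed a Benjamini-Hochberg adjusted p of 0.05 in either direction (0% of 5967 higher and 0% lower in YBX1-/-, smallest adjusted p 0.751), and 373 genes had an unadjusted p under 0.05. The fit has 2 residual degrees of freedom, from the scatter between 0.5 and 1 h and between 3 and 6 h, so its p-values measure the scatter of adjacent time points and no spread between cultures. That scatter was unequal, since the genotype difference moved by an SD of 0.54 log2 units over genes between 0.5 and 1 h and by 1.78 between 3 and 6 h. Without the 3 h libraries the count was 820 higher and 608 lower, and without the 6 h libraries it was 314 and 149. In those fits the lone late time point was assumed to vary like the early ones.

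The late time points were also read against separate early libraries, 3 h over 0.5 h and 6 h over 1 h, so that the 2 ratios share no library. Across 5967 genes, the genotype differences in these ratios had a Pearson correlation of 0.04 and a Spearman correlation of 0.08. They had the same direction in 3210 genes (53.8%), and in 3179 genes (53.3%) with the early libraries exchanged. A difference of at least 2-fold in both ratios was seen in 150 genes higher in YBX1-/- (2.51% of those tested) and 160 genes lower (2.68%). Among genes with a mean CPM of at least 20 these counts were 9 and 22 of 2054 genes.

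**Figure D2:**
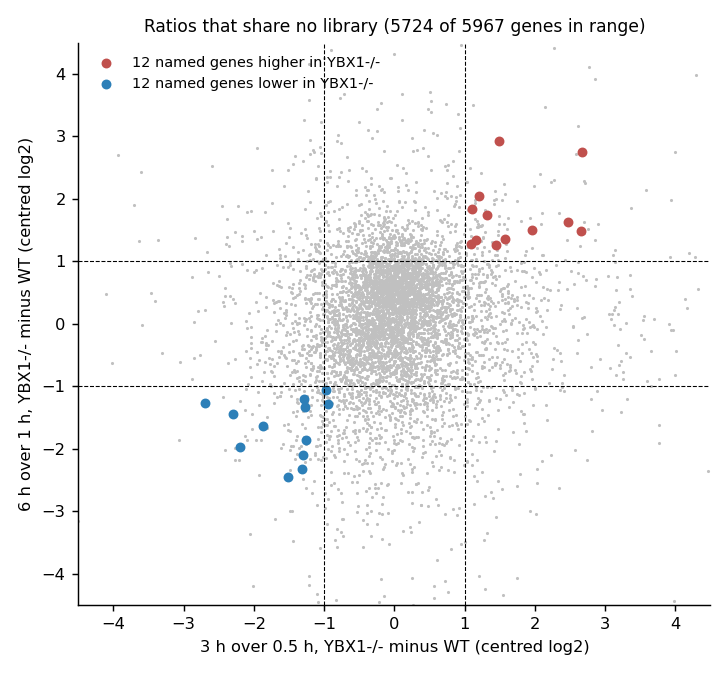
Difference between YBX1-/- and WT in the ratio of 3 h to 0.5 h (horizontal) and of 6 h to 1 h (vertical), both centred log2 values, for the 5724 of 5967 genes within 4.5 log2 units of 0. Dashed lines mark 2-fold, grey points are genes, and colours mark the 12 named genes in each direction, which were chosen from the same libraries. Across the 5967 genes Pearson's r is 0.04.

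Ybx1 itself carried long-lived label in both genotypes. Its rate in WT was 61.4, 56.8, 50.1 and 38.9% at 0.5, 1, 3 and 6 h, and in YBX1-/- it was 51.7, 43.4, 48.9 and 31.1%. Retained label at 6 h was 65.9% in WT and 65.5% in YBX1-/-. The measured interval is 387 bases of the 3′ UTR on chromosome 4 (GRCm38, bases 119277981 to 119278367). A share of converted reads does not report transcript amount, so these values do not check the knockout.

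Myc, a short-lived transcription factor message, had lower label in YBX1-/- late in the chase. The WT rates were 57.3, 23.2, 20 and 6.25% and the YBX1-/- rates 35.5, 19.1, 4.65 and 1.45%. This left 49.7 against 17.1% of the early label at 3 h and 15.5 against 5.32% at 6 h, lower in YBX1-/- at both times. The retained label difference was -1.42 log2 (SE 0.71, limma adjusted p = 0.751), which did not pass the test. Bcl2, an inhibitor of apoptosis, was listed at 0 in the WT 3 h library and 15.6% in YBX1-/- at 3 h. At 6 h its rate was 9.45% in WT and 2.07% in YBX1-/-, so the time points gave opposite directions.

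The 12 named genes with more retained label in YBX1-/- had the smallest p among genes with rates above 0 in all 8 libraries and a mean rate above the median, and none passed the test (limma adjusted p = 0.751 for each). Slc25a20, the mitochondrial carnitine-acylcarnitine carrier, had WT rates of 45.0, 58.6, 19.5 and 12.8% and YBX1-/- rates of 31.6, 22.4, 46.9 and 25.2% at 0.5, 1, 3 and 6 h. The YBX1-/- library was the lower one at both early times and the higher one at both late times. Its retained label difference was 2.21 log2 (SE 0.41). Ndufaf2, an assembly factor of respiratory complex I, had rates of 52.6, 51.5, 14.6 and 13.1% in WT and 31.8, 32.3, 32.1 and 14.2% in YBX1-/-. At 3 h this was 100% of the early rate in YBX1-/- and 28.1% in WT. The retained label difference was 1.47 (SE 0.26).

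Cdk1, the kinase that drives entry into mitosis, had the highest estimate of the 12, at 2.71 log2 (SE 0.53). Its WT rates were 71.8, 61.9, 3.33 and 0.95%, and its YBX1-/- rates 49.7, 42.4, 18.2 and 3.16%. WT cells thus kept 4.99% of the early Cdk1 label at 3 h and YBX1-/- cells 39.5%, and at 6 h the values were 1.42 and 6.86%. Lactb, a mitochondrial protein related to bacterial beta-lactamases, retained 14.0% in WT and 94.4% in YBX1-/- at 3 h, and 9.54 and 20.5% at 6 h. Psph, the last enzyme of serine synthesis, retained 24.8 and 85.8% at 3 h and 27.6 and 53.4% at 6 h. For Hsd17b4, a peroxisomal enzyme of fatty acid oxidation, the YBX1-/- rate at 3 h (48.0%) exceeded its own early rates of 22.8 and 31.5%, a value of 177% of baseline. The remaining 6 of these genes were Dglucy, Cntrl, Arhgef6, Mthfd1, Pdk3 and Usp45, with estimates from 1.18 (Usp45) to 2.05 (Arhgef6). Among the 12, Psph, Arhgef6 and Pdk3 had a lower WT rate at 3 h than at 6 h, and the others did not. These WT rates at 3 and 6 h were 13.6 and 15.1%, 6.49 and 15.6%, and 17.7 and 25.3%. Each 3 h contrast rests on 1 WT library.

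The 12 named genes with less retained label in YBX1-/- were chosen in the same way, and again none passed the test (limma adjusted p = 0.751 for each). Slc35d1, a transporter of nucleotide sugars into the endoplasmic reticulum, had WT rates of 54.7, 46.0, 34.2 and 11.8% and YBX1-/- rates of 41.9, 39.7, 6.82 and 1.67%. It kept 67.9% of its early label in WT and 16.7% in YBX1-/- at 3 h, and 23.5 against 4.09% at 6 h. The retained label difference was -2.09 log2 (SE 0.40), the lowest of the 12. Uap1, which makes UDP-N-acetylglucosamine, retained 69.1 and 22.0% at 3 h and 28.0 and 6.02% at 6 h in WT and YBX1-/-.

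Mki67, the proliferation antigen Ki-67, had WT rates of 57.8, 50.3, 54.1 and 5.26% and YBX1-/- rates of 48.1, 40.8, 11.03 and 0.98%. The WT 3 h rate was as high as the early ones (100% of baseline), and the YBX1-/- 3 h rate was 24.8% of baseline. Hsf2, a heat shock transcription factor, retained 68.0 and 35.8% at 3 h and 15.7 and 3.73% at 6 h. Trp53inp1, a stress protein induced by p53, retained 64.7 and 33.9% at 3 h and 31.4 and 3.59% at 6 h. In Pip5k1a, a kinase that makes the membrane lipid PIP2, label at 6 h was 19.4% of baseline in WT and 2.26% in YBX1-/-. Further genes of this group were Sdad1, Gpatch2l, Samd9l, Pafah2 and Tuba1a, with estimates from -1.02 (Tuba1a, whose reads can be shared with near-identical tubulin genes) to -1.98 (Samd9l). With 0 h added to the baseline, Gpatch2l and Samd9l had estimates of 1.19 and 1.18, since both were listed at 0 in the YBX1-/- 0 h library and at 43.8 and 60.5% in the WT one.

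**Figure D3:**
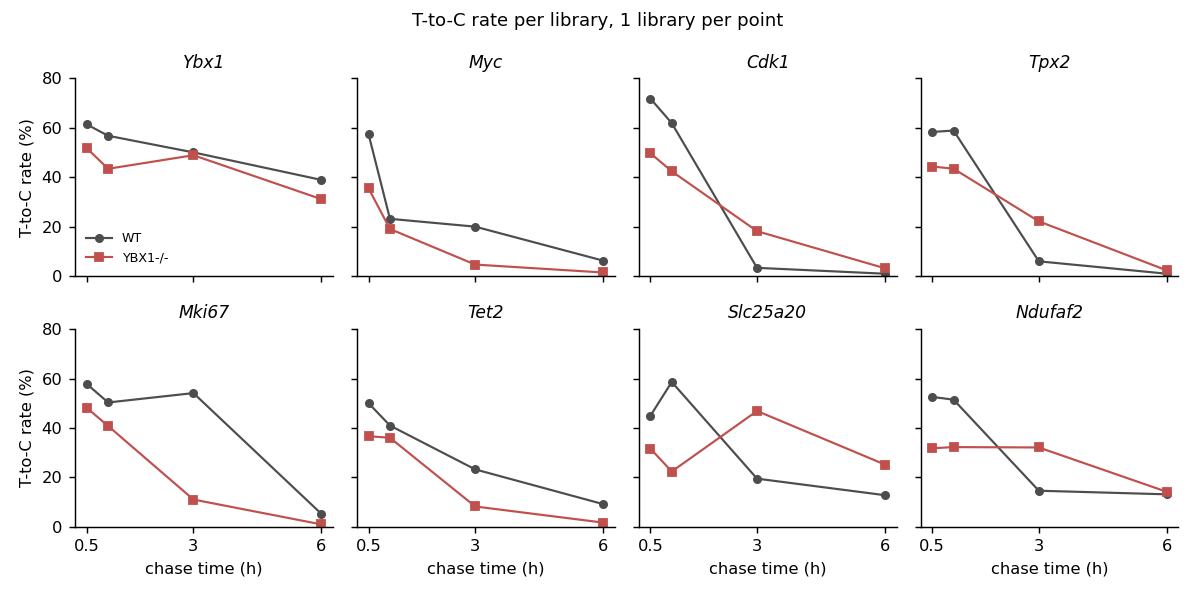
T-to-C rate (percent, linear axis) at 0.5, 1, 3 and 6 h of the chase in WT (circles) and YBX1-/- (squares) for 8 of the genes named in the text, with 1 library per point and no replicates. Cdk1, Tpx2, Slc25a20 and Ndufaf2 are higher in YBX1-/- at 3 and 6 h although lower in both early libraries. Myc, Mki67 and Tet2 are lower at every time.

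Gene groups were described by their medians and counts beside the same over all tested genes. Over all genes, 48.8% were higher in YBX1-/- relative to the library median at 3 h, 55.5% at 6 h and 55.2% over both times, and the median difference was -0.02 log2 at 3 h and 0.15 at 6 h. No member of any list passed the limma test. Without centring, the median over all genes was 0.32 at 3 h, -0.48 at 6 h and -0.06 over both times (0.09 with centring), so a group that stands above the library median at 6 h may still have kept no more label than in WT. Of the 17 lists, 8 had a 3 h median below 0 with centring and above 0 without it, and at 6 h 8 had a median above 0 with centring and below 0 without it. List members were chosen with results of these data known, and nothing is called particular to a list. In bulk samples, a different mix of cells and a different converted share within cells cannot be told apart.

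Transcripts of the mitochondrial respiratory chain, which makes ATP by oxidative phosphorylation, kept most of their label in both genotypes. The median over 69 genes was 74.6% in WT and 90.1% in YBX1-/- at 3 h, and 57.9% and 59.1% at 6 h. Relative to the library median, 68 of 69 were higher in YBX1-/- at 6 h, 25 at 3 h and 67 over both times. Without centring 62 of 69 were higher at 3 h and 40 at 6 h. The list medians were -0.08 log2 at 3 h (0.26 without centring) and 0.70 at 6 h. Set against genes of the same interval length quartile, the 6 h median was 0.23, with 54 of 69 higher. Ndufv1, a core subunit of complex I, was the member with the smallest p, with 21.5% retained in WT and 110% in YBX1-/- at 3 h and 46.8 and 69.0% at 6 h (1.60 log2, SE 0.37, limma adjusted p = 0.751).

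Ribosomal protein messages, which are long-lived and translated under growth control, also kept most of their label. Of 79 listed genes, only 31 reached the CPM limit and were tested, so the values describe these 31 and not the whole family. Over the 31 genes, the median retained at 6 h was 69.3% in WT and 68.0% in YBX1-/-, beside 22.2 and 14.4% for the median gene. The list median was -0.24 log2 at 3 h, with 6 of 31 genes higher, and 0.62 at 6 h, with 27 of 31 higher. Without centring 23 of 31 were higher at 3 h (median 0.10) and 15 at 6 h. Set against genes of the same interval length quartile, the 6 h median was 0.10, and the median over both times was -0.05 in place of 0.17.

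The proteasome, which degrades ubiquitin-tagged proteins, kept more label in YBX1-/- at the list median. Its 30 members retained 60.9% in WT and 78.5% in YBX1-/- at 3 h, and 31.3 and 39.5% at 6 h, higher in YBX1-/- at both times. Relative to the library median 28 of 30 were higher over both times, 17 at 3 h (list median 0.09 log2) and 24 at 6 h. Without centring 28 were higher at 3 h and 20 at 6 h. Psmd6, a subunit of the regulatory particle, retained 42.3 and 94.8% at 3 h and 24.0 and 44.9% at 6 h (1.18 log2, SE 0.35, limma adjusted p = 0.751). Set against genes of the same length quartile, the list's 6 h median was 0.39 in place of 0.88, with 22 of 30 higher.

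Chaperones, which fold newly made proteins, had 26 of 32 members higher over both times, with list medians of 0.09 log2 at 3 h and 0.68 at 6 h. Pdia3, a folding enzyme of the endoplasmic reticulum, retained 48.6% in WT and 103% in YBX1-/- at 3 h, and 55.8 and 69.0% at 6 h. Splicing factors had 40 of 48 higher, with medians of 0.11 and 0.53. Srsf1, an SR protein of exon recognition, retained 34.4 and 80.1% at 3 h and 17.9 and 21.1% at 6 h, whereas Srsf4 of the same family was listed at 0 in YBX1-/- at 6 h and at 18.7% in WT. Translation factors had 24 of 35 higher (medians -0.07 and 0.37), and genes of glycolysis 10 of 16 (-0.13 and 0.55). Set against genes of the same length quartile, the 6 h median was 0.05 for glycolysis, 0.19 for translation factors, 0.34 for splicing factors and 0.56 for chaperones, and the median of glycolysis over both times was 0.01 in place of 0.25. Without centring the 3 h medians were 0.27 for translation factors and 0.21 for glycolysis. The 6 h medians without centring were -0.26 for translation factors (14 of 35 higher) and -0.08 for glycolysis (5 of 16). They were -0.11 for splicing factors (20 of 48 higher) and 0.05 for chaperones (17 of 32).

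Messages of myeloid granules and maturation had high retained label in both genotypes. The median of 49 genes was 73.0% in WT and 89.5% in YBX1-/- at 3 h, and 61.6 and 59.2% at 6 h. Relative to the library median, 46 of 49 were higher at 6 h and 26 at 3 h, and without centring 43 were higher at 3 h and 19 at 6 h. Set against genes of the same length quartile, the 6 h median was 0.18 in place of 0.53, with 31 of 49 higher. Csf3r, the receptor of granulocyte colony-stimulating factor, had rates of 65.7, 42.9, 14.4 and 15.6% in WT and 39.8, 21.8, 37.0 and 10.5% in YBX1-/-. This put its YBX1-/- rate above WT at 3 h only. Fcnb, a ficolin of myeloid cells, retained 43.7 and 116% at 3 h and 74.7 and 101% at 6 h.

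Regulators of stem and leukemia cells were below the library median in YBX1-/- at both times, but at 3 h this direction turned without centring (20 of 36 higher, median 0.12). Over 36 genes, the median retained was 37.2% in WT and 33.0% in YBX1-/- at 3 h, and 17.7 and 7.03% at 6 h. Of these, 9 were higher in YBX1-/- over both times relative to the library median, 13 at 3 h and 7 at 6 h, and without centring 3 were higher at 6 h. The list medians were -0.22 log2 at 3 h and -0.54 at 6 h, and the 6 h value was -0.52 against genes of the same length quartile. Tet2, a dioxygenase that oxidises methylated DNA and is often mutated in myeloid disease, had WT rates of 50.0, 41.0, 23.2 and 9.18% and YBX1-/- rates of 36.7, 36.0, 8.22 and 1.70%. It kept 51.1 against 22.6% at 3 h and 20.2 against 4.66% at 6 h (-1.46 log2, SE 0.43, limma adjusted p = 0.751).

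The myeloid transcription factors Cebpa and Cebpb were also lower in YBX1-/- at both late times. Cebpa retained 66.2% in WT and 29.7% in YBX1-/- at 3 h, and 18.3 and 7.50% at 6 h. Cebpb retained 36.1 and 25.6% at 3 h and 15.6 and 1.66% at 6 h. Their retained label differences were -1.09 (SE 0.55) and -1.56 (SE 0.77), and neither passed the test (limma adjusted p = 0.751 for each).

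Chromatin regulators had 19 of 54 members higher in YBX1-/-, with medians of -0.43 log2 at 3 h and -0.27 at 6 h. Kdm6a, a histone H3 demethylase, was listed at 0 in both late YBX1-/- libraries and at 14.0 and 5.39% in WT, from early rates of 55.2 and 48.9% in WT and 45.2 and 31.0% in YBX1-/-. Eed, a core subunit of Polycomb repressive complex 2, went the other way, with 29.9 against 68.3% retained at 3 h and 13.4 against 42.1% at 6 h. In the Bcl2 family, which sets the threshold for apoptosis, 4 of 12 genes were higher. Bcl2l1, which encodes the survival protein Bcl-xL, retained 27.9 and 14.4% at 3 h and 14.9 and 4.51% at 6 h. Bax, which permeabilises mitochondria, retained 57.8 and 79.9% at 3 h and 30.1 and 45.9% at 6 h.

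In the Myc and Max network 5 of 10 genes were higher over both times, with medians of 0.14 at 3 h and -0.46 at 6 h. Mlx, a partner of glucose-sensing factors, was among the higher ones, with 27.2 and 54.0% retained at 3 h. Immediate-early and short-lived regulators had 15 of 35 genes higher (medians -0.09 and -0.26). Without centring the 3 h median was 0.25, with 20 of 35 higher. Set against genes of the same length quartile, the 6 h median was -0.42. Mdm2, the ubiquitin ligase of p53, retained 46.0 and 31.5% at 3 h and 8.50 and 2.20% at 6 h.

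Cell cycle genes were split. Of 25 genes of G2 and mitosis, 19 were higher in YBX1-/- over both times, and the median was 0.10 log2 at 3 h and 0.75 at 6 h. Over both times the median was 0.23, and it was -0.12 with a CPM limit of 20 (6 genes) and 1.24 with a limit of 1 (38 genes). Among the 19 genes with rates above 0 in all 8 libraries it was 0.05. Besides Cdk1, the spindle factor Tpx2 had WT rates of 58.3, 58.9, 5.97 and 0.95% and YBX1-/- rates of 44.3, 43.5, 22.2 and 2.32%, which is 10.2 against 50.5% retained at 3 h. Nusap1, a microtubule-binding protein of the spindle, was listed at 0 in both late WT libraries and at 27.4 and 6.75% in YBX1-/-. Mki67, of the same list, pointed the other way as given above. At least 2-fold in both separate ratios were 4 of the 25 genes higher and 2 lower, beside 2.51 and 2.68% of all tested genes.

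Genes of S phase had 22 of 34 members higher, with medians of 0.11 at both times. Set against genes of the same length quartile the 6 h median was -0.17, with 16 of 34 higher, and without centring it was -0.53. Gins1, part of the replicative helicase, retained 8.24% in WT and 67.5% in YBX1-/- at 3 h, and 9.06 and 18.3% at 6 h. Uhrf1, which maintains DNA methylation, retained 69.3 and 57.9% at 3 h and 24.3 and 9.62% at 6 h.

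Genes related to YBX1 by domain or function showed no common direction. The cold-shock domain and m6A machinery had 12 of 20 members higher and medians of -0.05 log2 at 3 h and 0.40 at 6 h. Over both times its median was 0.11, and -0.04 without centring. Its medians without centring were 0.29 at 3 h and -0.23 at 6 h. Carhsp1, a small cold-shock domain protein, retained 18.7 and 54.4% at 3 h and 13.4 and 25.9% at 6 h, whereas Cbll1 (Hakai), a subunit of the m6A writer complex, retained 20.1 and 21.8% at 3 h and 14.6 and 3.02% at 6 h. Deadenylation and decay factors had 29 of 52 higher and a median over both times of 0.02, which was -0.13 without centring. The 3 h median of these factors was -0.10, and 0.24 without centring. Within them, Dcp1a, a cofactor of mRNA decapping, retained 39.3 and 5.40% at 3 h and 19.2 and 3.30% at 6 h, and Smg1, a kinase of nonsense-mediated decay, 48.6 and 24.5% and then 23.8 and 2.27%. Cnot6l, a deadenylase, retained 14.9 and 31.9% at 3 h and 19.1 and 22.9% at 6 h.

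**Figure D4:**
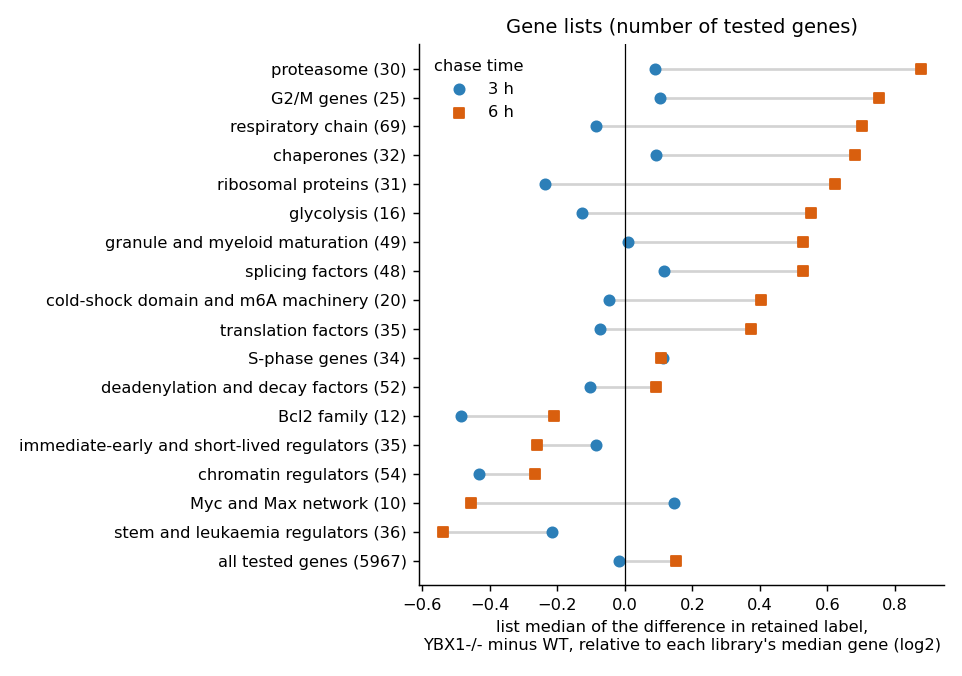
Median difference in retained label between YBX1-/- and WT for 17 gene lists and for all tested genes, in log2 units relative to each library's median gene, at 3 h (circles) and 6 h (squares). The number of tested genes is in parentheses, and both times share the same early libraries. At 6 h the medians run from -0.54 (stem and leukemia regulators) to 0.88 (proteasome), and at 3 h from -0.48 (Bcl2 family) to 0.14 (Myc and Max network).

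Retained label was related to the length of the measured interval. The 3′ UTR, where 5947 of the 5957 intervals with a sequence lay, holds most of the elements by which proteins and microRNAs set mRNA lifetime. In the quartile of shortest intervals (up to 572 bases), the median retained at 6 h was 30.3% in WT and 29.3% in YBX1-/-. In the quartile of longest intervals (from 2342 bases) it was 19.6% and 10.8%. Relative to the library median, the 6 h difference had medians of 0.52, 0.11, -0.06 and -0.12 log2 from the shortest to the longest quartile, and 74.9% of genes were higher in YBX1-/- in the shortest quartile against 45.0% in the longest. At 3 h the medians were -0.05, 0.00, -0.02 and 0.02. Across 5967 genes, which share libraries and depth, the rank correlation of length with the difference was -0.24 at 6 h and 0.05 at 3 h. The quartile of highest mean CPM had a 6 h median of 0.36, against -0.01 in the lowest. The tested respiratory chain and ribosomal protein genes had short intervals, with medians of 178 and 273 bases, and stem and leukemia regulators had a median of 1548 bases.

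The intervals were searched on the transcript strand for 4 motifs. TGTANATA, the element bound by Pumilio proteins, which recruit deadenylases, was in 1651 of 5957 intervals (27.7%). Among them, the 6 h difference in retained label was lower than among intervals without it in each length quartile. The same held for the ATTTA and GGACT motifs given below, so this order was not particular to TGTANATA. From shortest to longest, the medians were 0.23, -0.05, -0.15 and -0.17 log2 with the motif and 0.55, 0.15, -0.01 and -0.04 without it. The motif was held by 116 of 1491, 270 of 1490, 470 of 1488 and 795 of 1488 intervals in those quartiles. At 3 h the medians with and without it were -0.04 and -0.05 in the shortest quartile and 0.04 and -0.01 in the longest. Of the genes named by direction it was in 2 of the 12 higher and 6 of the 12 lower in YBX1-/-. It was also in Myc and Bcl2 and in several genes named from the lists. No test was made of these differences, and motif, length and CPM were not separated further.

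Windows of 30 bases with the element in capitals are shown for named genes, so that the sites of genes with higher and lower estimates can be compared (5′ to 3′ on the transcript strand, read from GENCODE transcripts on GRCm38). The first pair is from genes with higher estimates in YBX1-/-, and the others are from genes with lower estimates. These windows are a selection, and their number in each direction is not a result. Other named genes with the element were Bcl2, Nusap1, Rfc1, Rpl5, Srsf1, Cnot6l and Fmr1, with higher estimates. With lower estimates they were Bcl2l1, Dcp1a, Cdkn1a, Slc2a1, Pdk1, Kdm6a and Hdac4.
Cdk1 (chr10:69338333-69338362, minus strand): cttaattaacaTGTAAATAttattccatat
Arhgef6 (chrX:57231791-57231820, minus strand): cataaaggatgTGTACATAtgcatgtttgg
Myc (chr15:61990184-61990213, plus strand): caattttcccaTGTAAATAgggccttgaaa
Uap1 (chr1:170142111-170142140, minus strand): gtttttgaagtTGTACATAttgataagtca
Sdad1 (chr5:92286630-92286659, minus strand): ggaatgtgaaaTGTAAATAgtagcaatgtt
Gpatch2l (chr12:86289799-86289828, plus strand): aagtacagttgTGTATATAgttgtgcccga
Hsf2 (chr10:57512204-57512233, plus strand): caagtggacacTGTATATAttcatcaaaat
Mki67 (chr7:135689954-135689983, minus strand): taaagatgaacTGTAAATActactgctact
Trp53inp1 (chr4:11170385-11170414, plus strand): atagccttttcTGTATATAatgagtacatt
Tet2 (chr3:133465167-133465196, minus strand): atatacatatgTGTATATAtatattatata

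Cdk1 and Mki67 carry the same core, TGTAAATA, and had opposite estimates (2.71 and -1.87 log2). Sdad1 held 5 copies of the motif in 2813 bases and Trp53inp1 held 4 in 4420, and Myc held 2 in 466. Of the other motifs, CATC, the core that cold-shock domains of YBX1 prefer in RNA, was in 5316 of 5957 intervals (89.2%). In the shortest quartile the 6 h median was 0.50 log2 with CATC and 0.55 without it, and in the next it was 0.10 and 0.22. ATTTA, the core of AU-rich elements, was in 71.7% of intervals and GGACT, a frequent m6A context, in 66.4%. With ATTTA the 6 h medians from the shortest to the longest quartile were 0.44, 0.09, -0.07 and -0.13. Without it they were 0.56, 0.19, 0.19 and 0.03. With GGACT they were 0.43, 0.04, -0.06 and -0.13, against 0.56, 0.23, -0.03 and 0.02 without it. Only 35 intervals of the longest quartile lacked ATTTA, and 85 lacked GGACT. A match of these letters is a description of the sequence and not a bound site.

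**Figure D5:**
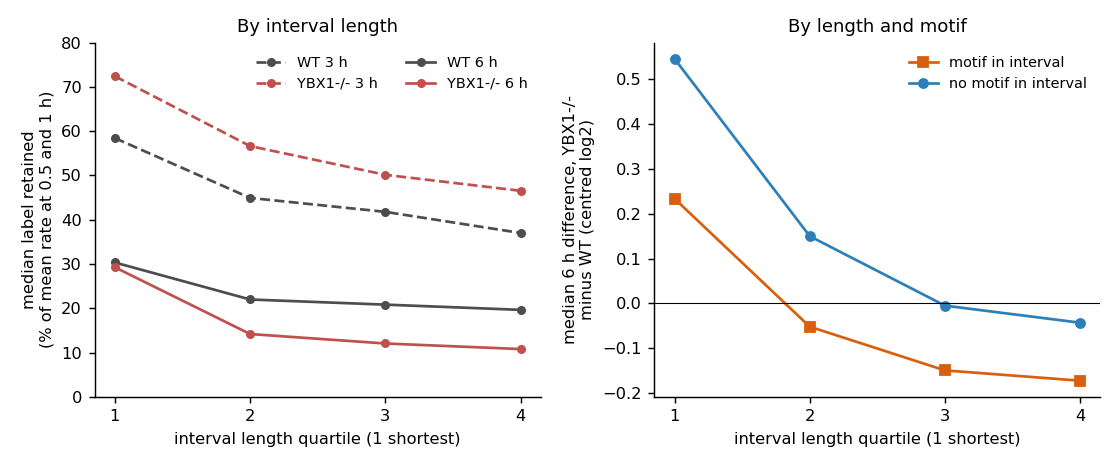
Left, median label retained (percent of the mean rate at 0.5 and 1 h) by quartile of interval length for both genotypes at 3 h (dashed) and 6 h (solid). Right, median 6 h difference between YBX1-/- and WT in centred log2 units for intervals with and without the Pumilio element in each length quartile. The gap between the genotypes at 6 h is 30.3 against 29.3% in the shortest quartile and 19.6 against 10.8% in the longest, and intervals with the element lie below those without it in all 4 quartiles.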

How the data were processed

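The authors deposited T-to-C rates as a fraction from 0 to 1 per interval and library. The denominator (reads or covered T positions) and the conversion counter were not given in the sources used here. Mean CPM and a coverage signal on Ts were deposited as the authors' means over libraries, per the file headers. Per the labels' protocols, RNA was taken with TRIzol and polyA libraries were made with a NEBNext kit. CASAVA, HISAT2 2.1.0 and the human build GRCh38 are named in the submitters' processing notes, although the samples are mouse. Of 5967 intervals, 5957 were read from GENCODE M21 mouse transcripts, and the T number equalled the deposited one in all 5957, so coordinates are GRCm38. Depth per library is unknown, no interval is given for a rate, and an exact 0 may be few reads or no conversion. No unlabelled library was used, and background was not subtracted.

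A single interval per gene was kept, that of highest mean CPM. Rates in percent, as log2(rate + 0.1), were centred on each library's median and fitted with limma 3.58.1 in R 4.3.3 (trend, time point as a factor, genotype, and genotype by window). The added 0.1 shrinks differences of low rates. Standard errors come from this fit. Named genes were Ybx1, Myc and Bcl2, the 12 per direction with the smallest p among genes above 0 in all 8 libraries with a mean rate above the median (none passed), and up to 4 members per list with the smallest p, without predicted genes, Rik clones and pseudogenes. The members, lists and tests were chosen with earlier results of these data known. Alternatives were other pseudocounts, CPM limits, baselines, intervals and fits, and each time point left out. Windows around motifs were limited to 30 bases. The values of 1 of the 12 genes with lower estimates are not reported here.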

Additional observations from a re-analysis of the deposited data

Results flagged for a closer look

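The genotype difference in the median of retained label had opposite directions at the 2 late times, 11.02 percentage points at 3 h (YBX1-/- above WT) and -7.833 points at 6 h. The difference between the times was not tested, since there is 1 library for each genotype and time.

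In 7 of 17 gene lists the median difference relative to the library median had opposite signs at 3 and 6 h, in 4 of them with a gap of at least 0.5 log2. In these 4 it was -0.24 and 0.62 log2 for ribosomal proteins, -0.085 and 0.70 for the respiratory chain, 0.14 and -0.46 for the Myc and Max network, and -0.13 and 0.55 for glycolysis (0.05 at 6 h against genes of the same interval length quartile). In the other 3 it was -0.07 and 0.37 for translation factors, -0.05 and 0.40 for the cold-shock domain and m6A machinery, and -0.10 and 0.09 for deadenylation and decay factors. Both times use the same early libraries, and these differences were not tested.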

How the results depend on the processing

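Under the other pseudocounts, CPM limits, baseline filters and intervals, without centring, without the trend, with 0 h in the baseline, and without a time point factor (no pairing by time point), limma again called 0 genes in either direction, with 45 to 616 genes at an unadjusted p under 0.05 over all these fits and those without 0.5 h or 1 h. A fit on the 4 ratios, which ignores the error of the early libraries, called 4 genes higher. Leaving out each time point in turn gave 0 to 820 genes higher and 0 to 608 lower. Genes were called only without 3 h or without 6 h. Every fit that leaves out a time point has 1 residual degree of freedom. Without 3 h or without 6 h it comes only from the scatter between 0.5 and 1 h. Counts of 2-fold differences in both separate ratios changed by over 1.5 times with a CPM limit of 20 (9 higher and 22 lower, of 2054 genes) and with a pseudocount of 1 (97 lower). Of 89 named genes, 5 changed sign under some alternative (Ybx1 without 6 h, Bcl2 without 3 h, and Gpatch2l, Mxd3 and Samd9l with 0 h in the baseline). Of 17 list medians, 8 changed sign, most often without the 6 h libraries. Leaving out 6 h gives the 3 h median, so those changes repeat the opposite signs at 3 and 6 h given above. Causes of the other sign changes were not tested. The main fit already pairs the genotypes by time point through the time point factor. No paired analysis by replicate was possible because there is 1 library for each genotype and time point. Depth per library is unknown, so rates near 0 limit single genes most.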
